A study of Mus musculus with 31 samples.

Results

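Expandable hemangioblast (eHB) lines made from tissue were compared with eHB lines made from embryonic stem (ES) cells by RNA-seq in mouse. The members were the 5 libraries whose titles name an eHB line, of 31 libraries in the whole series. The 3 tissue-derived lines were FL4 and FL10, which started from fetal liver cells, and M5, which started from embryonic fibroblasts. The 2 ES-derived lines were RB3.6.5 and RB4.6.9. Each line gave 1 library, so the spread within a group is the spread between lines, which may hold clonal differences.

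All 5 lines were grown on Matrigel in N2B27 medium, a serum-free medium, with 12.5 ng/mL FGF2 and 2 µg/mL doxycycline, an antibiotic widely used to switch on inducible transgenes. The tissue-derived lines received nothing else. The ES-derived lines also received 20 ng/mL VEGF, 20 ng/mL BMP4, 0.25 mM of the cyclic AMP analogue 8-Br-cAMP and 4 µM SB431542, an inhibitor of the TGF-beta and Activin type I receptors. Origin and medium therefore cannot be told apart in these 5 libraries, and the library numbers in the labels also fall into separate ranges by origin. The library numbers of the endothelial cultures described next are split by origin in the same way, while those of all blood cultures lie in 1 range. M5 was at passage 7, FL4, FL10 and RB3.6.5 at passage 6 and RB4.6.9 at passage 5.

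The same 5 lines were also sampled as progeny in media that did not differ with origin. Day 3 endothelial cultures of all lines had VEGF, BMP4, FGF2, 8-Br-cAMP and SB431542 and no doxycycline. Blood cultures were kept with CHIR99021, SCF, IL-3 and Flt3L at 1.5% oxygen and VE-cadherin-positive cells were purified from them by flow cytometry, the CD45-negative ones on day 2 and the CD45-positive ones on day 3. In every progeny stage, 3 tissue-derived libraries stood against 2 ES-derived libraries.

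A hemangioblast is a progenitor that gives rise to endothelium, the lining of vessels, and to blood. BMP4 is a ligand of the mesoderm that gives rise to these lineages. It acts through receptor kinases that phosphorylate SMAD1, SMAD5 and SMAD8, and the Id genes and the inhibitory SMADs are among the direct targets of these factors. Hox genes are arranged in clusters and mark position along the body axis, and imprinted genes are expressed from the copy of 1 parent.

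The eHB libraries held 22844070 to 31616406 expected counts in the tissue-derived lines and 37360157 to 39860050 in the ES-derived lines. Between 10797 and 10999 genes reached 1 TPM (transcript abundance scaled to a fixed total per library) in the tissue-derived lines, against 11136 to 11227 in the ES-derived lines. Part of the pan-endothelial list was read in each of the 5 lines, and levels differed between lines within a group. The summed level of the list was 888 to 999 TPM in the tissue-derived lines, against 938 TPM in RB3.6.5 and 432 TPM in RB4.6.9. Of the 28 listed genes, 7 were under 1 TPM in all 5 lines. In RB4.6.9 the endothelial genes Cdh5, Pecam1 and Tie1 were under 1 TPM as well. Ptprc, which encodes the blood marker CD45, was at 0.042 TPM or lower in every line. Some other pan-leukocyte genes were read. That list summed to 243, 122 and 44.2 TPM in M5, FL4 and FL10, against 39.8 and 17.4 TPM in RB3.6.5 and RB4.6.9. The hepatocyte list summed to 5.75 to 15.5 TPM in the tissue-derived lines, against 38.6 and 88.9 TPM in the ES-derived lines, and the fibroblast and stromal list to 681 to 1289.6 TPM, against 1686 and 1723 TPM. The hepatocyte and fibroblast sums rest on a minority of members. In all 5 lines, 20 of 24 hepatocyte genes and 16 of 25 fibroblast and stromal genes were under 1 TPM. In bulk RNA, fewer cells of a type and less RNA per cell cannot be told apart.

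Of 12759 genes tested, 582 were higher in the tissue-derived than in the ES-derived lines (4.56% of those tested) and 919 were lower (7.20%), 1501 in all (11.8%), by edgeR's quasi-likelihood test at a Benjamini-Hochberg adjusted p under 0.05. The median log2 fold change of all genes tested was -0.005. All fold changes here are log2 values of tissue-derived over ES-derived. The value after ± of a fold change is an approximate standard error. It was obtained by dividing the size of the fold change by the square root of the test's F statistic. In TPM, the groups did not overlap for 21.7% of genes in the higher direction and for 32.8% in the lower direction. DESeq2 called 1929 genes higher and 2044 lower. Only 4 genes were higher and 12 lower when the test asked for a change beyond 2-fold, and 276 were higher and 435 lower when the dispersion was shared with the progeny libraries. Leaving out any 1 library ended nearly all of the calls: edgeR called 29 genes without M5, 3 without RB3.6.5, and 0 without RB4.6.9, FL4 or FL10, where 3464, 3075 and 3567 genes had an unadjusted p under 0.05. Of the 1501 genes called, 1500 kept the sign of their fold change and an unadjusted p under 0.05 in all 5 fits that left out a library.

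**Figure D1:**
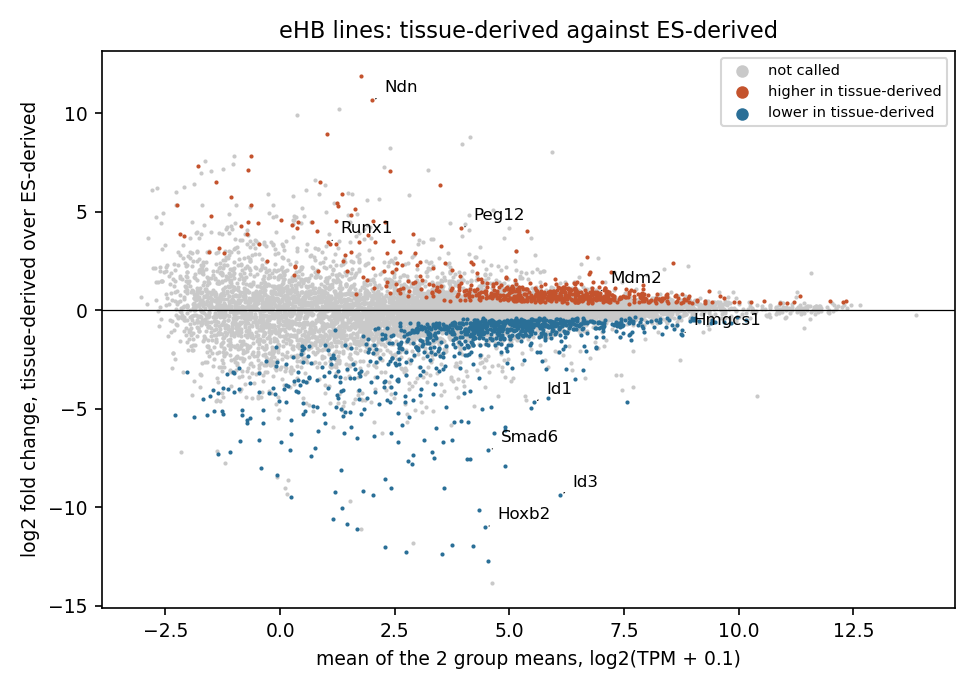
Each point is 1 of the 12759 genes tested, with the mean of the group means on the x axis as log2(TPM + 0.1) and the log2 fold change of tissue-derived over ES-derived eHB lines on the y axis. Red points are the 582 genes called higher and blue points the 919 called lower in tissue-derived lines. Id3, Smad6 and Hoxb2 lie at -9.36, -7.09 and -11.01, and Peg12 and Ndn at 4.18 and 10.66.

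Part of the genes that BMP signalling induces were lower in the tissue-derived lines, whose medium had no BMP4. Of 18 listed BMP target genes, 16 were tested, 0 were called higher and 6 were called lower (37.5%, beside 7.20% of all genes tested). The median log2 fold change of the members tested was -2.07, beside -0.005 for all genes. The summed level of the list was 23.2 to 31.6 TPM in the tissue-derived lines, against 320.5 and 424 TPM in the ES-derived lines.

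The Id genes encode proteins that bind basic helix-loop-helix factors and keep them off DNA. Id3 (chr4:136143497-136145755, plus strand, GRCm38) had 0.347, 0.105 and 0.148 TPM in M5, FL4 and FL10, against 112 and 161 TPM in RB3.6.5 and RB4.6.9. Every tissue-derived line was near 0 and both ES-derived lines were above 100 TPM (log2 fold change -9.36 ± 0.45, edgeR adjusted p = 0.0175). Id1 (chr2:152736251-152737410, plus strand) had 4.63, 1.88 and 3.52 TPM in the tissue-derived lines, against 74.7 and 103 TPM in the ES-derived lines (-4.66 ± 0.44, edgeR adjusted p = 0.0247). Id2 was low in the tissue-derived lines as well, with 0.211, 0.274 and 0.403 TPM, against 3.32 and 23.7 TPM in the ES-derived lines, which differed from each other (-5.41 ± 1.00, edgeR adjusted p = 0.0386). Id4 had 11.9, 4.68 and 6.61 TPM in the tissue-derived lines, against 32.4 and 3.02 TPM in the ES-derived lines; the groups overlapped.

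Smad6 encodes an inhibitory SMAD that is induced by BMP and dampens its receptors. It lies at chr9:63953076-64022059 on the minus strand and had 0.337, 0.411 and 0.201 TPM in M5, FL4 and FL10, against 42.9 and 48.9 TPM in RB3.6.5 and RB4.6.9. The ES-derived lines were close to each other and far from all tissue-derived lines (-7.09 ± 0.33, edgeR adjusted p = 0.0175). Smad9, which encodes SMAD8, had 0.084, 0.127 and 0.117 TPM in the tissue-derived lines, against 7.34 and 15.9 TPM in the ES-derived lines (-6.66 ± 0.47, edgeR adjusted p = 0.0247). Nog, which encodes the secreted BMP antagonist Noggin, had no count in any tissue-derived line, against 10.8 and 35.2 TPM in the ES-derived lines. Against a floor of 3 counts over the tissue-derived group it was at least 583-fold lower there (edgeR adjusted p = 0.0371). Smad7, the other inhibitory SMAD, had 5.57, 3.79 and 2.33 TPM in the tissue-derived lines, against 9.32 and 9.4 TPM in the ES-derived lines, and did not pass the test (-1.19 ± 0.39, edgeR adjusted p = 0.106).

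In the endothelial cultures, where every line had BMP4, Id3 had 32.1, 152 and 172 TPM in progeny of M5, FL4 and FL10, against 123 and 142 TPM in progeny of RB3.6.5 and RB4.6.9. The groups overlapped there (log2 fold change -0.17 ± 0.70, edgeR adjusted p = 0.92). Smad6 had 1.44, 18.5 and 19.7 TPM in the tissue-derived cultures, against 6.51 and 10.1 TPM in the ES-derived cultures, and also overlapped. In both genes the M5 culture was the lowest. The change in the origin difference between the stages, eHB minus endothelial, was -9.20 ± 1.11 on the log2 scale for Id3, which did not pass the test (edgeR adjusted p = 0.0527). For Smad6 it was -7.76 ± 1.39 (edgeR adjusted p = 0.0753). Nog was at 0.083 TPM or lower in all 5 endothelial cultures.

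**Figure D2:**
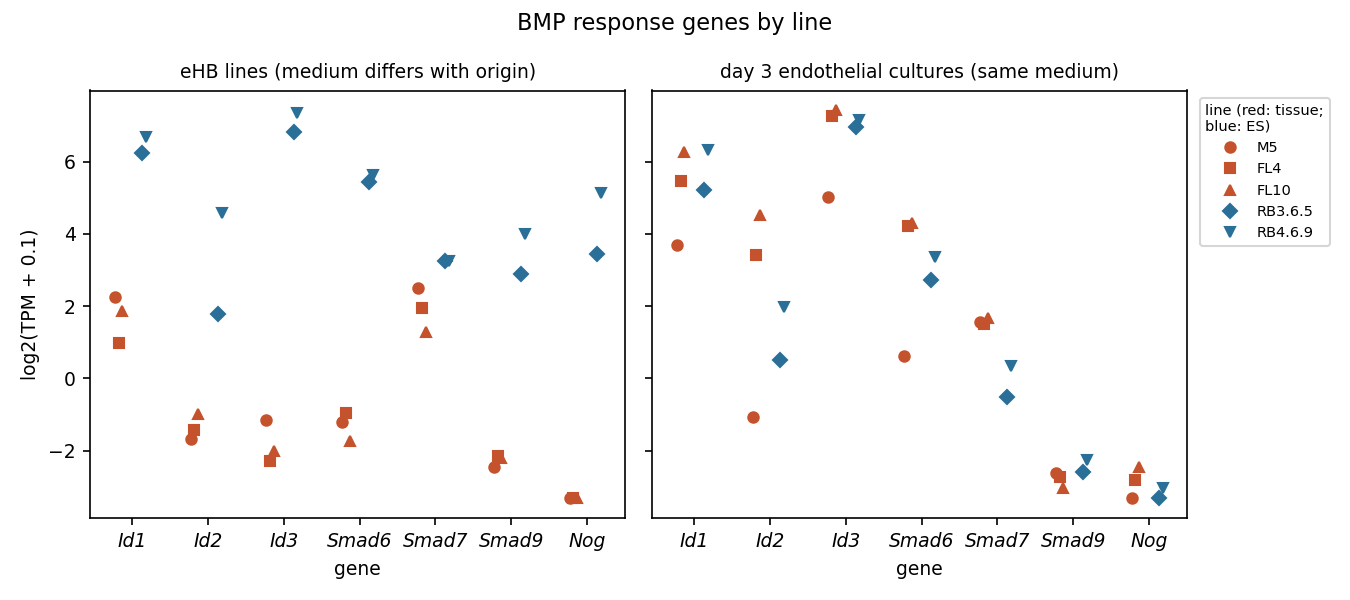
The y axis gives log2(TPM + 0.1) of 7 BMP response genes in each line, with tissue-derived lines in red left of ES-derived lines in blue, in the eHB lines (left) and the day 3 endothelial cultures (right). In eHB lines the 3 tissue-derived values of Id3 lie at 0.347 TPM or lower and both ES-derived values at 112 TPM or higher. In the endothelial cultures the groups overlap for Id1, Id2, Id3 and Smad6. Smad7, Smad9 and Nog are plotted there too and are not covered by that statement.

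The start regions of 3 of the called BMP genes are shown because each holds a SMAD-type element that was searched for. They run from 250 bases before to 50 bases after the RefSeq start (GRCm38.p6), 5′ to 3′ on the strand of the gene, at chr9:64022010-64022309 for Smad6 (minus strand), chr3:54755332-54755631 for Smad9 (plus strand) and chr12:25096043-25096342 for Id2 (minus strand). Capitals mark the element, GTCTAGAC in Smad6 and GGCGCC in Smad9 and Id2.
Smad6: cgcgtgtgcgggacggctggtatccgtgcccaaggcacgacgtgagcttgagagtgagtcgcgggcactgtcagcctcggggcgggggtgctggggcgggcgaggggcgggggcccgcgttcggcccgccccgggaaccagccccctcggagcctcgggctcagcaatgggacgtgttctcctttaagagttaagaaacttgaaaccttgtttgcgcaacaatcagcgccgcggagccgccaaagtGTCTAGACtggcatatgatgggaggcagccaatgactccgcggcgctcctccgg
Smad9: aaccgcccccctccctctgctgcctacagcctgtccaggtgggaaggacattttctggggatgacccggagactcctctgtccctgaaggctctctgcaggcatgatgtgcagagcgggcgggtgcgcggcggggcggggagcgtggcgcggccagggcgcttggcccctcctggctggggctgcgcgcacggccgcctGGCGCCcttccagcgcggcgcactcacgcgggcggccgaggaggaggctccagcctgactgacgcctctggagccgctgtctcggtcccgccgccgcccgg
Id2: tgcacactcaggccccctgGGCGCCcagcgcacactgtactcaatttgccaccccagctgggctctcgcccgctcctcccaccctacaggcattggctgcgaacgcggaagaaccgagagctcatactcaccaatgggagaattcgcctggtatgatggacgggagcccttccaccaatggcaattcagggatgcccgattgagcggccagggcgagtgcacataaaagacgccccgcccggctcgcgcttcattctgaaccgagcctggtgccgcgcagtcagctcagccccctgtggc
These windows were searched on both strands for GTCTAGAC, GGCGCC, the cyclic AMP response element TGACGTCA and the E-box CACGTG, and each window printed held 1 kind of these. GTCTAGAC was in 0.228% of the 9658 windows of genes tested, in 2 of 693 windows of genes called lower (0.289%) and in 0 of 455 windows of genes called higher. GGCGCC was in 22.2% of windows of genes tested, in 25.3% of those of genes called lower and in 22.9% of those of genes called higher. The start region of Id3 held none of the 4 elements. For Id1 and Nog, which were also called, no window was searched singly. Among uncalled genes searched singly, GGCGCC was in the windows of Id4, Gata3 and Tbx20. Neither SMAD-type element was in those of Msx1, Msx2, Atoh8 and Bmper. TGACGTCA was in 3.74% of windows of genes called higher, 3.17% of those called lower and 3.21% of those tested. CACGTG, the preferred element of MYC-family factors, was in 16.5% of windows of genes called higher, against 9.67% of those called lower and 10.4% of those tested. These shares are descriptions of letters in the windows and were not tested.

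Of the genes that respond to the other signals in which the media differed, 3 were called. None of 17 cyclic AMP and CREB target genes tested was called by edgeR; the smallest adjusted p was 0.0537, for Nr4a1, an immediate-early nuclear receptor. Nr4a1 had 49.9, 45.9 and 40.2 TPM in the tissue-derived lines, against 33.3 and 25.5 TPM in the ES-derived lines. DESeq2 called 2 of the cyclic AMP genes (Nr4a1 and Nr4a3), beside 31.1% of all genes, and 3 of them had an unadjusted p under 0.05 in edgeR, beside 34.2% of all genes. Of 12 VEGF-induced genes tested, 0 were called higher and 1 lower (8.33%, beside 7.20% of all genes): Unc5b, a netrin receptor, had 3.67, 2.18 and 2.28 TPM in the tissue-derived lines, against 28.8 and 143 TPM in the ES-derived lines (-4.93 ± 0.77, edgeR adjusted p = 0.0329).

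Of 15 TGF-beta and Activin target genes tested, 0 were called higher and 2 lower (13.3%, beside 7.20% of all genes) in the tissue-derived lines, whose medium had no receptor inhibitor. Skil, which encodes the SMAD co-repressor SnoN, had 7.46, 8.98 and 8.25 TPM in the tissue-derived lines, against 27 and 30.3 TPM in the ES-derived lines (-1.73 ± 0.13, edgeR adjusted p = 0.0247). Tgfbi was at 0.053 TPM or lower in the tissue-derived lines, against 0.327 and 1 TPM in the ES-derived lines.

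FGF2 was in both media. Of 19 FGF and ERK feedback genes tested, 1 was called higher and 1 lower (5.26% each, beside 4.56% and 7.20% of all genes). Phlda1, a pleckstrin-homology protein induced by growth factors, averaged 17.2 ± 1.61 TPM in the tissue-derived lines (SD, n = 3), against 77.5 and 81 TPM in the ES-derived lines; the values within each group were close (-2.13 ± 0.12, edgeR adjusted p = 0.0207). Fosl1, an AP-1 component, had 23.3, 29.9 and 21.7 TPM in the tissue-derived lines, against 13.2 and 8.22 TPM in the ES-derived lines (1.31 ± 0.28, edgeR adjusted p = 0.0481). Of 12 Notch genes tested, only the ligand Jag2 was called (8.33% higher, beside 4.56% of all genes). Jag2 had 173, 186 and 191 TPM in the tissue-derived lines, against 74.4 and 100.0 TPM in the ES-derived lines (1.14 ± 0.17, edgeR adjusted p = 0.0314).

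The Hoxb genes tested were at 1.33 TPM or lower in the tissue-derived lines, and 4 of the 7 tested passed the test. Of 10 listed Hoxb genes, 7 were tested, 0 were called higher and 4 were called lower (57.1%, beside 7.20% of all genes). In TPM all 7 lay lower without overlap, beside 32.8% of all genes. Their median log2 fold change was -8.59, or -6.28 with genes that had no count in the tissue-derived lines set at their bound. None of the Hoxa or Hoxc genes passed the filter on low counts, and 0 of 4 Hoxd genes tested were called. Hox paralogs share sequence, and how reads were divided among them is uncertain.

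Hoxb2 (chr11:96350525-96354012, plus strand) had 0.053, 0 and 0 TPM in M5, FL4 and FL10, against 55.3 and 32.6 TPM in RB3.6.5 and RB4.6.9. It was read at a single count in the tissue-derived group, a ratio of 2792-fold lower with a 95% counting interval of 501 to 110311 (edgeR adjusted p = 0.0247). Hoxb3 had 0.516, 0 and 0.032 TPM in the tissue-derived lines, against 37 and 29.8 TPM in the ES-derived lines (-7.54 ± 1.28, edgeR adjusted p = 0.037). Hoxb5 had no count in the tissue-derived lines, against 2.3 and 2.02 TPM in the ES-derived lines, and Hoxb7 had 0, 0 and 0.053 TPM, against 4.97 and 14 TPM. Hoxb4, Hoxb6 and Hoxb8 did not pass the test, with edgeR adjusted p of 0.122, 0.0829 and 0.0513.

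In endothelial cultures Hoxb genes were read in progeny of both origins, at different levels along the cluster. Hoxb2 had 0.199, 0.093 and 0.042 TPM in cultures of M5, FL4 and FL10, against 36.4 and 19.5 TPM in those of RB3.6.5 and RB4.6.9. Hoxb5 had 15.1, 32.5 and 58.4 TPM, against 74.1 and 65.1 TPM. Hoxb8 had 26.1, 6.39 and 30.9 TPM, against 117 and 144 TPM. All tissue-derived cultures were lower than both ES-derived cultures for Hoxb2 to Hoxb8, as they were for 20.0% of all genes tested in eHB lines. In none of these Hoxb genes did the origin difference pass the test at that stage (edgeR adjusted p = 0.102 for Hoxb2, with a log2 fold change of -7.87 ± 0.60). The ES lines RB2, RB3 and RB4 themselves had 0, 0.054 and 0.13 TPM of Hoxb2, and Kdr-positive mesoderm made from them had 46.9, 17.3 and 21.8 TPM.

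Imprinted genes moved in both directions. Of 24 tested, 2 were called higher (8.33%, beside 4.56% of all genes) and 6 lower (25%, beside 7.20%), with a median log2 fold change of -0.98. The 2 higher genes were Ndn and Tssc4, and the 6 lower genes were Slc38a4, Mest, Cdkn1c, Peg3, Grb10 and Gnas. Mest, a paternally expressed hydrolase gene, had 2.88, 10.6 and 27.7 TPM in M5, FL4 and FL10, against 380.4 and 349 TPM in RB3.6.5 and RB4.6.9 (-4.65 ± 0.91, edgeR adjusted p = 0.0424). Cdkn1c, which encodes the cyclin-dependent kinase inhibitor p57, had 1.39, 8.77 and 4.52 TPM in the tissue-derived lines, against 55.6 and 165 TPM in the ES-derived lines (-4.42 ± 0.88, edgeR adjusted p = 0.0438). Grb10, an adaptor that restrains growth factor receptors, had 223 to 296 TPM in the tissue-derived lines, against 458 and 569 TPM in the ES-derived lines, a smaller difference (-0.93 ± 0.17, edgeR adjusted p = 0.0381).

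Igf2, a growth factor expressed from the paternal copy, had 305, 16.8 and 28.7 TPM in the tissue-derived lines, against 3034 and 2091 TPM in the ES-derived lines. M5 lay far above FL4 and FL10, the groups did not overlap, and the difference did not pass the test (-4.36 ± 1.36, edgeR adjusted p = 0.0961). In endothelial cultures the groups overlapped, with 1283, 638 and 648 TPM in tissue-derived cultures and 907 and 497 TPM in ES-derived cultures.

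Ndn and its neighbours Peg12 and Mkrn3 on chromosome 7 were higher in the tissue-derived lines. Peg12 and Mkrn3 are not on the imprinted list and do not enter its counts. Other called genes outside that list were not searched for imprinting, and not every gene of this stretch is described. Ndn (chr7:62346569-62350262, plus strand), which encodes the MAGE-family protein necdin, had 15.3, 4.7 and 3.34 TPM in M5, FL4 and FL10 and no count in RB3.6.5 or RB4.6.9. Against the floor of 3 counts over the ES-derived group it was at least 146-fold higher in the tissue-derived lines (edgeR adjusted p = 0.0386). Peg12 (chr7:62461871-62464510, minus strand) had 28.1, 25.4 and 33 TPM in the tissue-derived lines, against 1.95 and 1.4 TPM in the ES-derived lines (4.18 ± 0.23, edgeR adjusted p = 0.0207). Mkrn3 (chr7:62417593-62420139, minus strand), which lies between them and was picked after its values were seen, had 3.92, 1.93 and 2.86 TPM, against 0.068 and 0.199 TPM (4.49 ± 0.74, edgeR adjusted p = 0.035). The direction was not shared by 2 other genes of the same imprinted region. Snrpn had 27.6, 23.6 and 30.9 TPM in the tissue-derived lines, against 41 and 22.3 TPM in the ES-derived lines, with overlap. Ube3a, a ubiquitin ligase gene also picked after its values were seen, was lower, with 26.1, 24.6 and 25.8 TPM in the tissue-derived lines, against 47.4 and 47 TPM in the ES-derived lines (-0.81 ± 0.08, edgeR adjusted p = 0.0258).

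Ndn, Peg12 and Mkrn3 were higher without overlap in the tissue-derived progeny at all 3 later stages. In day 3 blood, Peg12 had 5.38, 10.4 and 10.6 TPM in progeny of M5, FL4 and FL10, against 0.143 and 0.226 TPM in progeny of RB3.6.5 and RB4.6.9. In endothelial cultures Ndn had 18.3, 4.22 and 7.07 TPM, against 0 and 0.409 TPM. The ES lines had 3.28 to 3.7 TPM of Ndn and Kdr-positive mesoderm 11.1 to 20.7 TPM, so Ndn was read in both of these ES-lineage stages and not in either ES-derived eHB line.

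**Figure D3:**
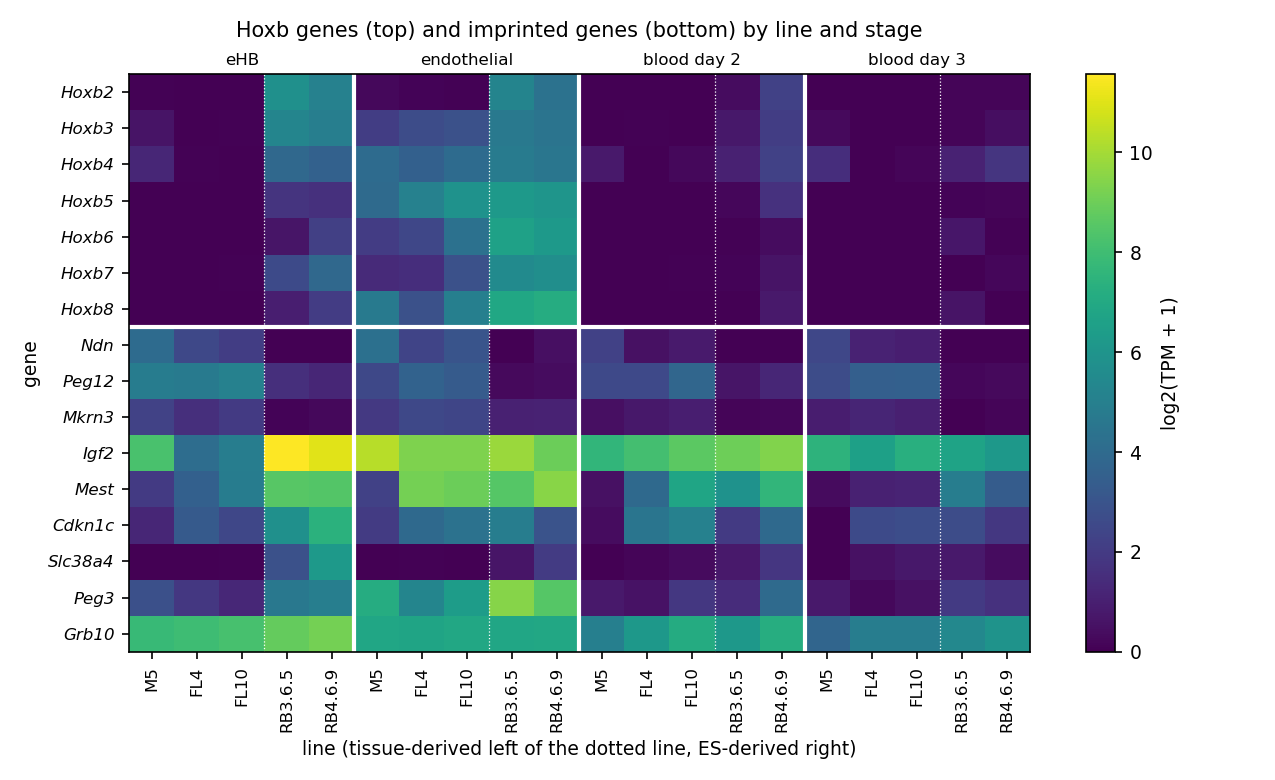
Rows are 7 Hoxb genes (top) and 9 imprinted genes (bottom) and columns are the 5 lines in each of 4 stages, tissue-derived left of the dotted line, with colour for log2(TPM + 1). The Hoxb rows are dark in all tissue-derived eHB lines and lit in all endothelial cultures except Hoxb2, which stays at 0.199 TPM or lower in the tissue-derived ones. Ndn and Peg12 are brighter in tissue-derived libraries in each stage.

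Part of the sterol and fatty acid synthesis genes were lower in the tissue-derived lines. All 22 listed genes were tested, 0 were called higher and 10 lower (45.5%, beside 7.20% of all genes), with a median log2 fold change of -0.49. Hmgcs1, which makes the HMG-CoA of the mevalonate pathway, had 255, 234 and 269.6 TPM in M5, FL4 and FL10, against 649 and 554 TPM in RB3.6.5 and RB4.6.9 (-1.17 ± 0.10, edgeR adjusted p = 0.0247). Mvd, mevalonate diphosphate decarboxylase, had 137, 108 and 105 TPM, against 298 and 257 TPM (-1.17 ± 0.15, edgeR adjusted p = 0.0277). Lss, Cyp51, Fdps, Fdft1, Insig1, Scd1, Scd2 and Acly were the other called members, with log2 fold changes from -1.22 to -0.54. Fasn, fatty acid synthase, overlapped between the groups at 313, 280.0 and 267 TPM in the tissue-derived lines, against 249 and 331 TPM in the ES-derived lines. In endothelial cultures Hmgcs1 was again lower without overlap, at 225, 189 and 188 TPM, against 308 and 299 TPM, and did not pass the test there (edgeR adjusted p = 0.165).

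Several p53-network genes were higher in the tissue-derived lines. Of 18 listed kinase inhibitors and p53 targets, 4 were called higher (22.2%, beside 4.56%) and 2 lower (11.1%, beside 7.20%), with a median of 0.06. Trp53, which encodes p53, had 335, 309 and 278 TPM in the tissue-derived lines, against 187 and 176 TPM in the ES-derived lines (0.84 ± 0.11, edgeR adjusted p = 0.0277). Mdm2, the p53 ubiquitin ligase and a p53 target, had 173, 152 and 143 TPM, against 91.7 and 79.6 TPM (0.95 ± 0.12, edgeR adjusted p = 0.0277). Bax and Sesn2 were the other called genes that were higher, and Cdkn1c and Trp53inp1 were lower. Cdkn1a, which encodes p21, overlapped at 634, 715 and 675 TPM, against 662 and 538 TPM. In the endothelial cultures Trp53 overlapped between the groups, with 155, 321 and 307 TPM in those of tissue-derived lines and 195 and 251 TPM in those of ES-derived lines.

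Among 20 cell cycle genes, 5 were called higher (25%, beside 4.56% of all genes) and 2 lower (10%, beside 7.20%). Mcm3, Mcm5 and Mcm6, subunits of the replicative helicase, Tyms, thymidylate synthase, and Cdc20, an activator of the anaphase-promoting complex, were higher by 0.35 to 0.76 on the log2 scale. Top2a had 251, 239 and 229 TPM in the tissue-derived lines, against 379 and 383 TPM in the ES-derived lines, and the checkpoint kinase gene Bub1 had 53.8, 52 and 66 TPM, against 117 and 116 TPM. The proliferation marker Mki67 overlapped, with 116, 102 and 95.6 TPM in the tissue-derived lines and 119 and 101 TPM in the ES-derived lines.

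**Figure D4:**
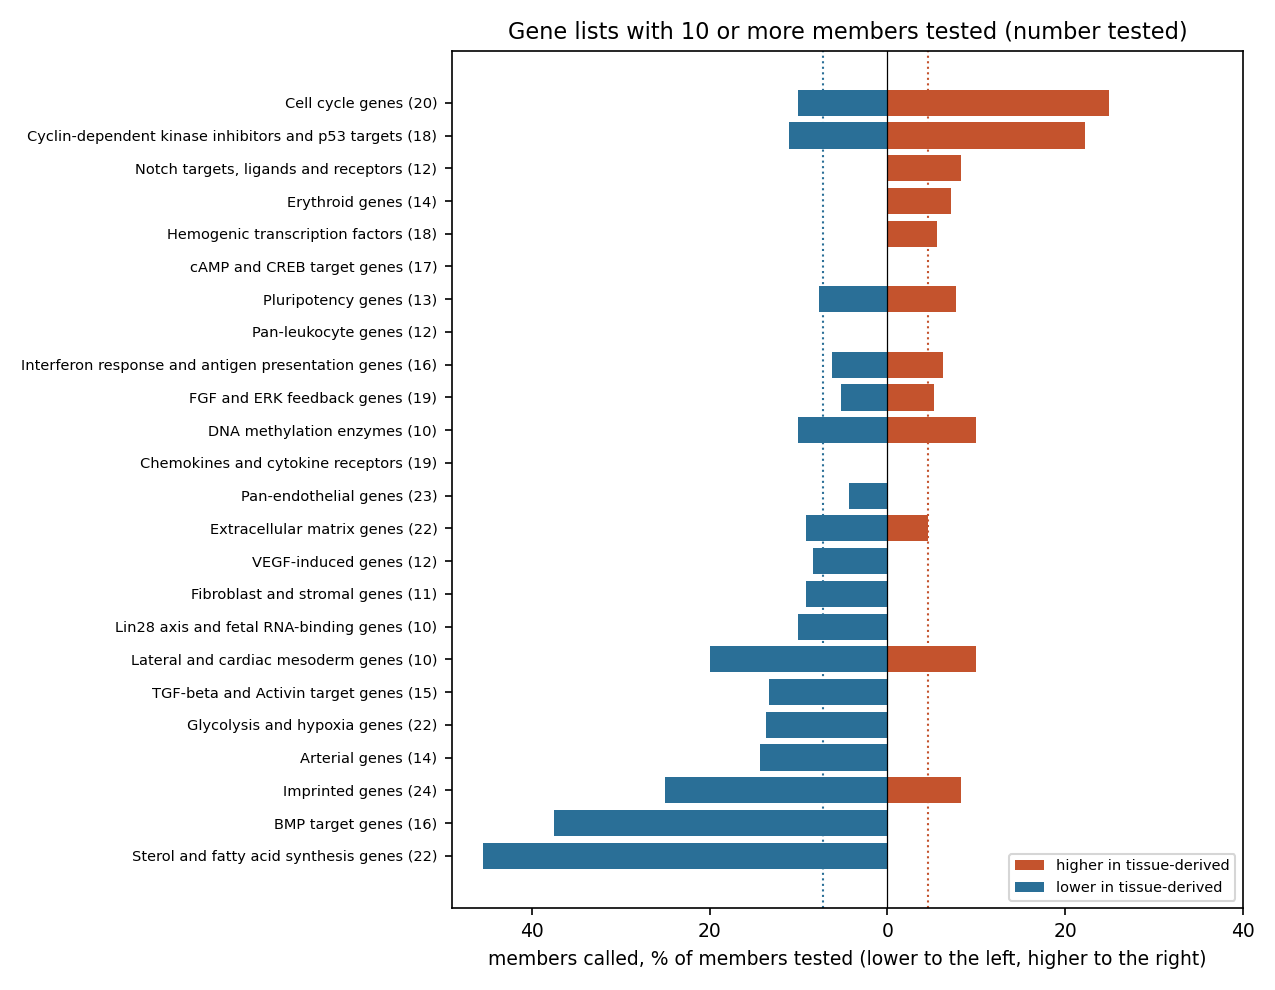
Bars give the share of tested members that edgeR called higher (red, to the right) or lower (blue, to the left) in tissue-derived eHB lines, for lists with 10 or more members tested; the number tested stands in parentheses. The dotted lines mark the shares over all genes tested, 4.56% higher and 7.20% lower. The sterol and fatty acid list (45.5% lower) and the BMP target list (37.5% lower) reach farthest to the left.

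Few endothelial and blood genes were called, and single lines stood apart from their group. Of 23 pan-endothelial genes tested, 0 were called higher and 1 lower (4.35%, beside 7.20% of all genes). The called gene, Sox7, a SoxF transcription factor, had 0.116, 0.496 and 0.858 TPM in M5, FL4 and FL10, against 43 and 10.7 TPM in RB3.6.5 and RB4.6.9 (-5.65 ± 0.97, edgeR adjusted p = 0.037). Tie1, an endothelial receptor, had 111, 121 and 102 TPM in the tissue-derived lines and 106 TPM in RB3.6.5, against 0.959 TPM in RB4.6.9. Kdr, which encodes VEGF receptor 2, had 2.96, 36.2 and 45.1 TPM, against 44.6 and 3.1 TPM, so M5 and RB4.6.9 were low. Cdh5, which encodes VE-cadherin, had 88.2, 30.6 and 60.1 TPM in the tissue-derived lines, against 6.72 and 0.331 TPM in the ES-derived lines, without overlap and short of the threshold (4.18 ± 1.33, edgeR adjusted p = 0.0991). Pecam1 had 85.3, 45.3 and 7.39 TPM, against 32.2 and 0.276 TPM. In endothelial cultures Cdh5 had 3102, 2837 and 3031 TPM in progeny of the tissue-derived lines, against 2924 and 2554 TPM in progeny of the ES-derived lines, with overlapping groups.

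Runx1, the factor required for blood to emerge from endothelium, was the called member of 18 hemogenic transcription factors tested (5.56% higher, beside 4.56% of all genes). It had 3.48, 4.83 and 2.49 TPM in the tissue-derived lines, against 0.406 and 0.243 TPM in the ES-derived lines (3.49 ± 0.46, edgeR adjusted p = 0.0277). It was also higher without overlap in endothelial cultures, with 22, 10.8 and 8.98 TPM in those of tissue-derived lines, against 6.01 and 2.97 TPM in those of ES-derived lines, and overlapped in both blood stages. Of 14 erythroid genes tested, only Slc4a1, the red cell anion exchanger, was called (7.14% higher, beside 4.56% of all genes). Slc4a1 had 0.8, 7.94 and 2.74 TPM, against 0.011 and 0 TPM. None of the megakaryocyte, pan-leukocyte, myeloid or macrophage genes was called by edgeR. The pan-leukocyte genes tested had a median log2 fold change of 2.22, beside -0.005 for all genes. In TPM, 5 of the 12 lay higher without overlap and 1 lower, beside 21.7% and 32.8% of all genes. The medians of the megakaryocyte, myeloid and mast cell, and macrophage lists were 0.19, 0.87 and 0.61. By an unadjusted p under 0.05 in edgeR, 0 of 8 megakaryocyte, 5 of 12 pan-leukocyte, 2 of 4 myeloid and mast cell and 2 of 6 macrophage genes passed, beside 34.2% of all genes; DESeq2 called 0, 5, 1 and 2 of them, beside 31.1% of all genes.

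Lists of other cell types and states had 1 to 3 called members each among those described here, to be read beside 4.56% of all genes higher and 7.20% lower. The hepatocyte list had 0 higher and 2 lower of 5 tested (40% lower): Rbp4, a retinol carrier, and the keratin gene Krt18. The lateral and cardiac mesoderm list had 1 gene higher (10%) and 2 lower (20%) of 10 tested; Hand2, a heart and limb factor, had 0.2, 1.11 and 1.33 TPM in the tissue-derived lines, against 66.8 and 50 TPM in the ES-derived lines (-5.93 ± 0.72, edgeR adjusted p = 0.0277). The extracellular matrix list had 1 higher (4.55%) and 2 lower (9.09%) of 22: Hspg2, which encodes perlecan, was higher, and the proteases Mmp14 and Mmp2 were lower. Mmp2 had 8.97, 7.44 and 24.4 TPM in the tissue-derived lines, against 168 and 150.3 TPM in the ES-derived lines (-3.47 ± 0.56, edgeR adjusted p = 0.0347). The glycolysis and hypoxia list had 0 higher and 3 lower (13.6%) of 22, namely Aldoc, Bnip3 and Vegfa, with Vegfa at 26.6, 31.4 and 36.2 TPM, against 79.3 and 77.2 TPM. Dnmt3a, a de novo DNA methyltransferase, had 14.8, 11.1 and 13.5 TPM, against 46.2 and 37.9 TPM (-1.46 ± 0.17, edgeR adjusted p = 0.0277), and Tet1, a methylcytosine dioxygenase, was higher in the tissue-derived lines (0.89 ± 0.15, edgeR adjusted p = 0.037).

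The ectopic transcription factors are given as separate rows that share coding sequence with the endogenous genes, so the split of reads between the 2 rows is uncertain. Ectopic Lmo2 had 5629, 3305 and 5301 TPM in M5, FL4 and FL10, against 1934 and 737 TPM in RB3.6.5 and RB4.6.9; the groups did not overlap and the difference did not pass the test (1.92 ± 0.48, edgeR adjusted p = 0.0641). Ectopic Gata2 ranged from 211 to 1464 TPM in the tissue-derived lines, against 14.3 and 337 TPM in the ES-derived lines. Ectopic Sox17, Tal1 and Mycn overlapped between the groups, with edgeR adjusted p of 0.669, 0.59 and 0.197. Endogenous Mycn had 0, 0.675 and 0.286 TPM in the tissue-derived lines, against 19.9 and 6.11 TPM in the ES-derived lines (-5.23 ± 1.33, edgeR adjusted p = 0.0653). Endogenous Gata2, Lmo2, Sox17 and Tal1 overlapped.

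The largest called differences among genes at 20 TPM or more in the higher group were also taken as 15 in each direction, whether or not a gene was on a list; genes with predicted or clone names were left out. In the higher direction they were Cxx1a, Peg12, Tmem51, Ephx1, S100a10, Ccdc116, Lars2, Wscd1, Sco2, Coro2b, Ptp4a3, Prkab1, Tnfrsf12a, Ift27 and Zswim7. The clone-named 9030617O03Rik would have stood among them, with 67.1, 75.5 and 92.4 TPM in the tissue-derived lines, against 7.6 and 2.49 TPM in the ES-derived lines (4.05 ± 0.54, edgeR adjusted p = 0.0287). S100a10, a partner of annexin A2, had 203, 176 and 155 TPM in the tissue-derived lines, against 44.4 and 12.4 TPM in the ES-derived lines (2.74 ± 0.58, edgeR adjusted p = 0.0475). Ephx1, microsomal epoxide hydrolase, had 49, 54.4 and 84.6 TPM, against 11 and 5.17 TPM (3.04 ± 0.44, edgeR adjusted p = 0.0316). Lars2, mitochondrial leucyl-tRNA synthetase, had 625, 850.2 and 416 TPM, against 121 and 131 TPM; in day 3 blood of RB3.6.5, the shallowest library at 9424412 counts, it stood at 49087 TPM, while RB4.6.9 had 918 TPM there and the tissue-derived lines 406 to 1121 TPM. Cxx1a has near-identical copies, and its value of 19.2, 24.8 and 21.7 TPM, against 0 and 0.562 TPM, depends on how reads were divided among them.

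In the lower direction they were Pdlim4, Nog, G0s2, Cthrc1, Hoxb2, Slc38a4, Id3, Col13a1, Frzb, Ntng2, Hoxb3, B3gnt5, Smad6, Mxra8 and Rbm24, of which Nog, Id3, Smad6, Hoxb2, Hoxb3 and Slc38a4 are list members described above. Pdlim4, a PDZ and LIM protein gene, had no count in the tissue-derived lines, against 31.6 and 60.0 TPM in the ES-derived lines, which is at least 729-fold lower. G0s2, an inhibitor of the triglyceride lipase ATGL, had no count either, against 24.4 and 49.3 TPM, at least 429.8-fold lower. Cthrc1 had no count, against 16.8 and 36.4 TPM, at least 417-fold lower. Frzb, a secreted Wnt antagonist, had 0.063, 0.158 and 0.445 TPM, against 113 and 7.17 TPM, so the ES-derived lines differed widely from each other (-7.89 ± 1.46, edgeR adjusted p = 0.0391).

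The called genes were followed into the progeny, beginning with the endothelial cultures. Of the 582 genes called higher in tissue-derived eHB lines, 235 (40.4%) were also higher without overlap in the tissue-derived endothelial cultures and 31 (5.33%) were lower without overlap; over all genes tested in eHB, the shares were 19.3% and 20.0%. Of the 919 genes called lower, 491 (53.4%) were lower without overlap in the endothelial cultures and 41 (4.46%) higher. In the endothelial fit of 12860 genes, edgeR called 0 genes higher and 1 lower (0.00778%) at an adjusted p under 0.05, with 2364 genes at an unadjusted p under 0.05, while DESeq2 called 775 higher and 814 lower. The called gene was Arhgef5, a guanine nucleotide exchange factor, named for being the single call, with 1.13, 0.912 and 0.925 TPM in tissue-derived cultures, against 59.8 and 42.5 TPM in ES-derived cultures (-5.68 ± 0.21, edgeR adjusted p = 0.0169). Without any 1 of the 5 endothelial libraries that call was lost. The fit of the change between stages called 0 of 13761 genes (2177 at an unadjusted p under 0.05, and 1042 called by DESeq2), 1 gene with the line as a block, 1 without RB3.6.5 and 14 without M5.

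In blood, whose library numbers lie in 1 range, smaller shares kept their direction than in the endothelial cultures. The shares over all genes were smaller in blood too, so the raw shares of the 2 kinds of culture are not directly comparable. Of the 582 genes called higher in eHB lines, 40 (6.87%) were higher without overlap in day 2 blood of tissue-derived lines, beside 3.50% of all genes, and more of them, 61 (10.5%), were lower without overlap, beside 12.0% of all genes. In day 3 blood, 93 of the 582 (16%) were higher, beside 12.1% of all genes, and 35 (6.01%) lower, beside 12.4%. Of the 919 called lower, 163 (17.7%) were lower without overlap in day 2 blood and 10 (1.09%) higher. In day 3 blood, 156 of the 919 (17%) were lower and 71 (7.73%) higher. In all 3 progeny stages together, 15 of the 582 (2.58%) were higher and 54 of the 919 (5.88%) lower without overlap, beside 0.439% and 1.32% of all genes; Ndn, Peg12 and Cxx1a were among the 15, and Hoxb2, Hoxb5, Hand2, Mmp14, Mmp2 and Mxra8 among the 54. The stages share their lines but not their libraries, and none of these shares was tested.

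**Figure D5:**
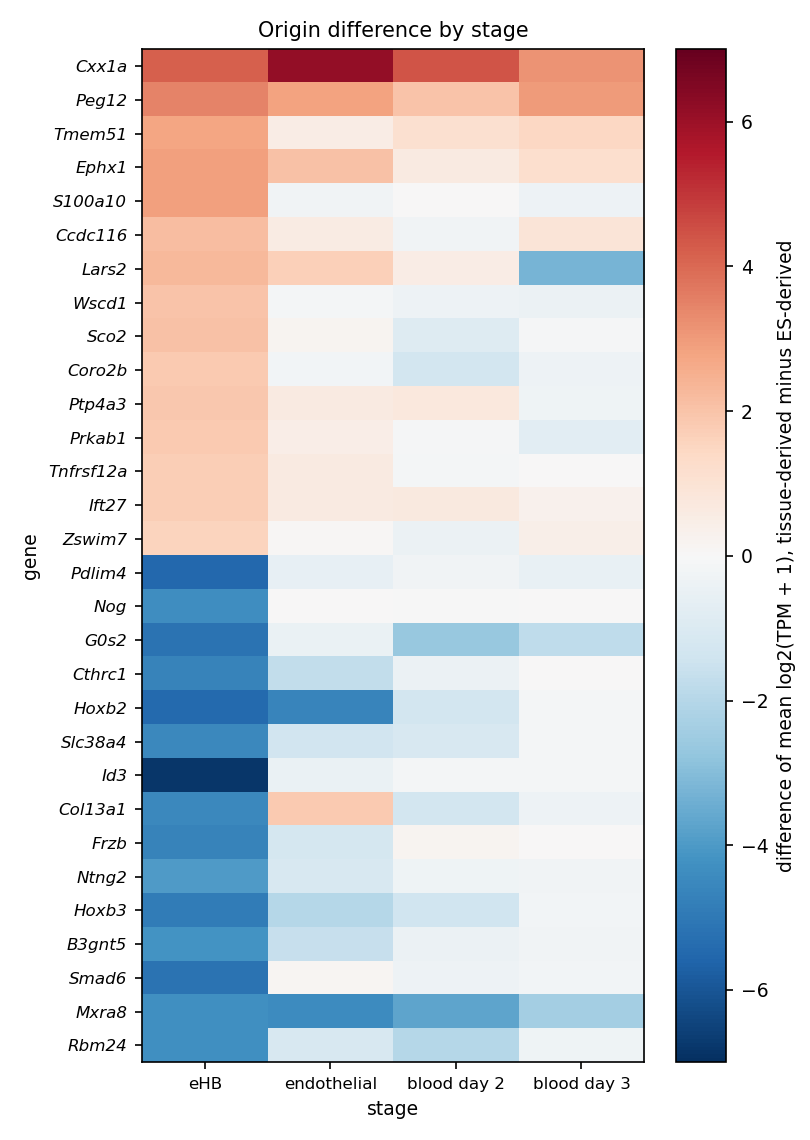
Rows are the 30 genes with the largest called differences in eHB lines and columns the 4 stages; colour gives the difference of mean log2(TPM + 1), tissue-derived minus ES-derived, with red for higher and blue for lower. Cxx1a and Peg12 stay red and Mxra8 stays blue across the stages, and Id3, Smad6 and Nog are dark blue in eHB lines and near white in the progeny.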

How the data were processed

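Total RNA was taken from Trizol lysates, purified on RNeasy columns and treated with DNase, and the TruSeq RNA Sample Prep Kit v2 was used for libraries, per the labels' protocols. The authors deposited expected counts per gene and a TPM table, renormalised in a way not described in the sources used here. Per the submitters' processing notes, CASAVA 1.8.2, RSEM 1.2.3 and Bowtie 0.12.9 were used with build mm10. Strand use is not given in the sources used here, so reads of a gene and its antisense partner cannot be separated. The TPM header holds 1 name too many; after it was left out, 30 of 30 columns matched their own count column by detected genes, and 1 per-sample column was not used.

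Expected counts were rounded to whole numbers and tested with edgeR 4.0.16 in R 4.3.3 (robust quasi-likelihood test, TMM, filterByExpr, Benjamini-Hochberg adjustment, threshold 0.05) on the 5 eHB libraries alone, the 5 endothelial libraries alone, and both together for the change between stages. DESeq2, limma on log2(TPM), other scalings and leaving out each library were alternatives. On simulated data the eHB step over 12759 genes recovered 61% of 4-fold and 88% of 16-fold changes, with 13 false calls. The simulation changed 100 genes at each fold, fewer than the 1501 called in the data, so these rates hold for that setting only. Blood cultures were described without a test. Levels are deposited TPM. Where a group had no count, the fold is given against a floor of 3 counts over the group; floors and 95% exact intervals cover counting error only. Gene positions are from GENCODE vM21 (GRCm38) and promoter windows from RefSeq (GRCm38.p6).

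The same line pairs libraries across stages. The correlation of a line's deviations from the group mean between eHB and endothelial libraries was 0.249 to 0.364 over 11899 genes in 5 lines. These values are not independent, because deviations from a group mean cancel out within the group. RB3.6.5 and RB4.6.9, the only ES-derived lines, must therefore share the same value, 0.249. Different lines were not correlated as a baseline, so how far these values depend on matching by line was not tested. No pair of eHB libraries agreed within sampling noise (chi-square per gene of 45.8 to 121).

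Genes were named by a rule: sorting markers and the ectopic factors; the 15 largest called changes in each direction at 20 TPM or more without overlap, predicted and clone names left out; and, for each of 40 lists, up to 4 called members by adjusted p in each direction and up to 2 uncalled members by level. The text gives fewer. The comparison, its members and the lists were chosen with earlier results of these data known. Part of what the rule picks is not reported here.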

Additional observations from a re-analysis of the deposited data

Results flagged for a closer look

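In 4 of the 30 genes named for their size, the origins lay apart in a progeny stage in the opposite direction from the eHB lines. Such reversals were not particular to these genes. Of all genes called lower in eHB lines, 4.46% were higher without overlap in endothelial cultures. Of all genes called higher, 10.5% were lower without overlap in day 2 blood and 6.01% in day 3 blood. Col13a1, a transmembrane collagen gene, was lower in tissue-derived eHB lines, with 0.032, 0.095 and 0 TPM against 27.1 and 19.7 TPM, and higher in tissue-derived endothelial cultures, with 6.42 and 4.45 TPM in M5 and FL4 and a higher level in FL10 against 1.52 and 1.36 TPM, a difference of 1.96 in log2(TPM + 1) of the means. The change between these stages was -11.58 on the log2 scale and did not pass the test (edgeR adjusted p = 0.0527). The other 3 reversals are in blood and were not tested. Sco2, a factor of cytochrome c oxidase assembly, was higher in tissue-derived eHB lines, with 37.8, 26.3 and 26.9 TPM against 6.07 and 6.59 TPM, and lower in day 2 blood of the tissue-derived lines, with 15.4, 13.3 and 27.9 TPM against 37.7 and 31.2 TPM, a difference of -0.84 in log2(TPM + 1) of the means. Prkab1, a subunit of AMP-activated kinase, had 178, 207 and 124 TPM against 53.5 and 39.2 TPM in eHB lines, and 92, 113 and 109.7 TPM against 237 and 133 TPM in day 3 blood (-0.81). Wscd1 had 19.8, 27.1 and 13.3 TPM against 3.97 and 4.05 TPM in eHB lines, and 1.45, 0.873 and 2 TPM against 2.39 and 2.02 TPM in day 3 blood (-0.39). The Wscd1 groups nearly met in day 3 blood, at 2 TPM in FL10 and 2.02 TPM in RB4.6.9.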

How the results depend on the processing

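For origin in eHB lines, the count of genes higher and lower stayed within 1.5 times of 582 and 919 with DESeq2 size factors, library size alone, upper quartile scaling, no filter, limma on log2(TPM + 1) or log2(TPM + 0.1), and without the ectopic rows. It was 1929 and 2044 with DESeq2, 4 and 12 where the change had to exceed 2-fold, and 276 and 435 with a dispersion shared by 20 libraries. With limma and no filter, 439 were higher and 1109 lower, so 28.4% of the calls were higher, against 38.8% in edgeR. Leaving out each library gave 0 to 8 higher and 0 to 21 lower. With fewer libraries the residual degrees of freedom fall, and a lone ES-derived line is assumed to vary like the tissue-derived ones. For origin in endothelial cultures, DESeq2 called 775 higher and 814 lower, and leaving out each library gave 0 and 0, against 0 and 1 with all libraries. The change between stages had 0 calls in edgeR, 1042 with DESeq2, 1 with the line as a replicate block (the paired fit), and 0 to 14 when each line was left out. The cause of these differences was not tested otherwise.

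Of 86 called named genes, none reversed under any alternative run, but many were no longer called in some runs. That number was 0 with DESeq2, 11 with limma on log2(TPM + 1), 37 with the shared dispersion and 78 against a 2-fold change. It was 79 without M5 and 86 without FL4 or FL10. Among uncalled genes named as markers or factors, signs turned when single libraries were left out, with log2 fold changes from -0.56 (without RB4.6.9; -0.19 without FL10) to 3.23 for Kdr, -2.58 to 7.18 (without RB4.6.9) for Ddx3y, -0.09 (without RB4.6.9; -0.00 without FL4) to 0.38 for Tal1, -0.22 to 0.14 (without M5) for endogenous Gata2 and -0.04 (without FL4) to 0.30 for ectopic Sox17. Of the 1501 called genes, 1499 were called with the same sign by DESeq2 and 1376 by limma on log2(TPM + 1).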

Other observations

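Y-linked genes split the lines in a way that did not follow origin. Ddx3y had 0.021, 0 and 21.4 TPM in M5, FL4 and FL10, against 0.045 and 43.9 TPM in RB3.6.5 and RB4.6.9. Eif2s3y had 0, 0.074 and 40.6 TPM in the tissue-derived lines, against 0.068 and 60.8 TPM in the ES-derived lines. The same 2 lines, FL10 and RB4.6.9, had Ddx3y in their endothelial cultures (36.4 and 49.3 TPM), while it was at 0.044 TPM or lower in the cultures of M5, FL4 and RB3.6.5. All 3 ES lines, RB2, RB3 and RB4, had 27.7 to 30 TPM.

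Ptprc in day 3 blood had 98.8, 81.4 and 102 TPM in progeny of M5, FL4 and FL10, against 16.4 and 45.8 TPM in progeny of RB3.6.5 and RB4.6.9. The groups did not overlap, as for 12.1% of genes in this direction at this stage, and no test was run there.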
